A study of Mus musculus with 21 samples.

Results

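The 41 genes described here carry a cell through division: 13 copy the DNA or supply its building blocks, 7 are the cyclins and cyclin-dependent kinases that start the cycle, and 21 act in G2 and mitosis. They were chosen by gene symbol, and every probe set that the platform annotation gives to 1 of those symbols alone was taken. A probe set is the group of short probes on the array that reads 1 transcript. In all, 40 of the 41 genes were measured, through 95 probe sets, among 14338 genes with a usable probe set. Ccnb1, which encodes cyclin B1, was not analysed here.

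Whole testes of wild-type male mice of the outbred CD-1 stock were profiled at 6 stages on single-colour oligonucleotide arrays. Gestation day (gd) 11, Theiler stage 18, had 5 arrays, each labelled as a pool of 2, and gd12, Theiler stage 20, had 3 arrays, each labelled as a pool of 5. The stages gd14, gd16, gd18 and postnatal day (pnd) 2, which are Theiler stages 22, 24, 26 and 27, had 3 unpooled arrays each, giving 20 testis arrays, and 1 further array held a reference RNA pooled from 8 whole newborn mice of both sexes at postnatal day 0.5. The labels name no transgene, deletion or treatment for any group. Whole organs were taken, so every value averages over all cell types present. The series' design text describes each sample as the testes of 1 animal, each from a different dam, which differs from the pool sizes on the gd11 and gd12 labels; the labels were followed.

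Before S phase, cells load the hexameric MCM helicase onto replication origins with the help of Cdc6 and Cdt1, and geminin (Gmnn) blocks a second loading in the same cycle. D-type cyclins with Cdk4 and E-type cyclins with Cdk2 release E2F transcription factors, which switch on genes for replication. Genes for mitosis are switched on later, by complexes that read a short promoter element called the cell cycle homology region. In the fetal testis the supporting Sertoli cells multiply during fetal life, whereas male germ cells multiply after reaching the gonad, then stop dividing before birth and resume only after it.

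The deposited value is an intensity, the brightness of a probe set, and every array had been scaled to the same trimmed mean of 500. Intensities of different genes are not comparable, since each probe set binds with its own strength, so every level below is compared only with the same gene at other stages. All 40 genes were above the background level of 71.6 in every stage mean. Correlations between arrays of 1 stage were 0.931 to 0.981. The summed intensity of 14 Sertoli cell markers was 3681 to 11309.9 at gd11, 29224 to 48443 at gd12 and 117088 to 130726 at pnd2. At gd11, 5 of them (Amh, Cst9, Cst12, Defb19 and Ptgds) were below background. Not all followed the sum: the mean of Sox9 was 912 at gd11 and 819 at gd12. Wt1 already had a mean of 3702 at gd11, against 4766 at gd12. Replicates 16 and 17 of gd11 stood apart, with a summed level of 8 neural markers of 64159 and 39527 against 3815 to 10462 on the other gd11 arrays and 1022 to 3709 at gd12. Replicate 13 of gd12 had the lowest sum of 11 germ cell markers of its stage, 7010.1 against 21757 and 19348. It had the highest sum of 6 adrenal markers of its stage, 2706 against 742 and 744.

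Most of the division genes were highest at gd11 or gd12, and the step with the most falls was that from gd12 to gd14. Of the 40 genes, 37 varied over the stages by limma's moderated F-test with Benjamini-Hochberg adjustment over all 14338 genes (adjusted p below 0.05, the threshold for every call here), against 68.3% of all genes tested. The exceptions were Cdk2, Cdk1 and Aurkb. The highest stage mean (of log2 values) lay at gd11 for 15 genes and at gd12 for 21, where 23.8% and 11.9% of all genes had theirs. Only Bub1 and Mad2l1 were highest at gd14, Ccnd3 at gd18 and Cdk2 at pnd2. For Bub1 the log2 means of gd12 and gd14 were nearly equal, 11.821 and 11.825. Its mean intensity was higher at gd12, 3678 against 3607. The lowest mean lay at gd14 for 6 genes, gd16 for 11, gd18 for 16 and pnd2 for 7, where the shares of all genes were 15.2%, 9.95%, 10.8% and 23.5%.

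**Figure D1:**
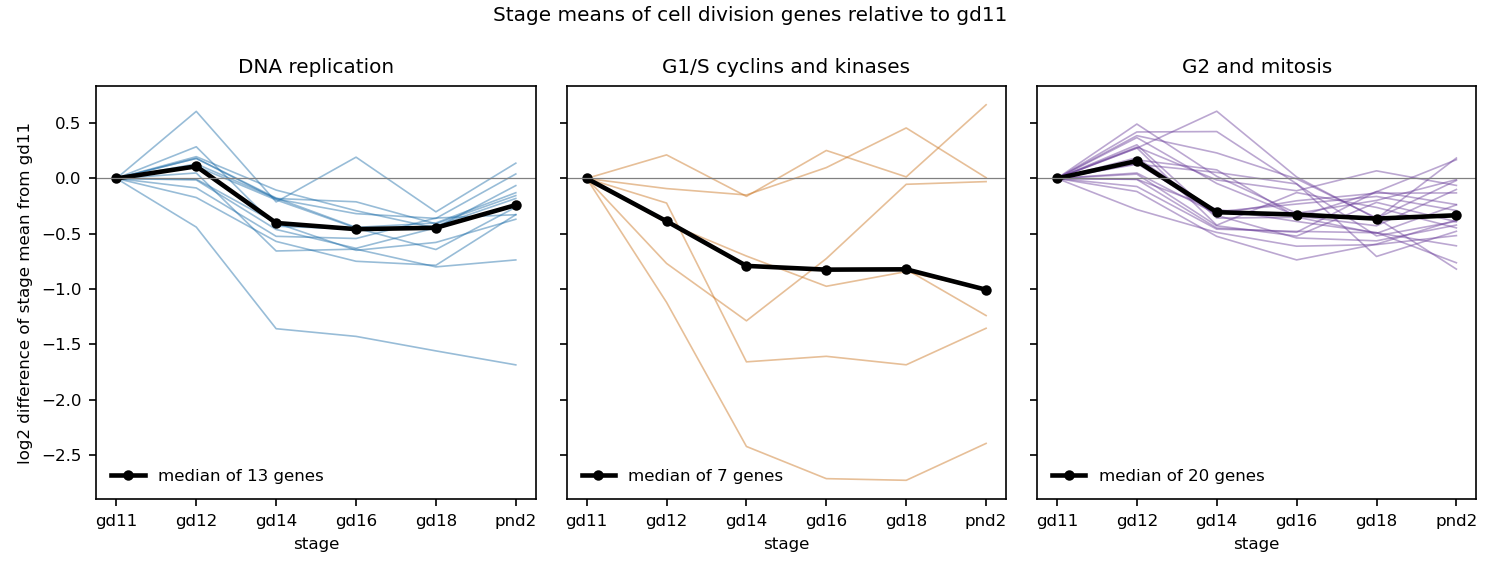
Stage means of the 13 replication, 7 G1/S and 20 mitosis genes as log2 differences from gd11 (y axis) over the 6 stages (x axis); thin lines are genes and the black line is the median of the group. The medians of the replication and mitosis genes stand above 0 at gd12 and below it from gd14 on, and the G1/S genes spread apart, with Ccnd1 the lowest line.

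From gd12 to gd14, 25 of the 40 genes fell and 0 rose, against a background of 7.34% of all genes falling and 11.4% rising, 18.7% together. The median change of the 40 genes was -0.40 on the log2 scale and that of all genes 0.03, and 38 of the 40 differences were negative. In 27 genes every gd14 array lay below every gd12 array, a pattern seen in 16.2% of all genes, and in 1 gene, Mad2l1, every gd14 array lay above, against 21.4%. With single arrays left out the number that fell was 13 to 28: it was 13 without gd12 replicate 15 and 16 without gd14 replicate 10, and it was also 16 without gd12 replicates 13 and 14 together. The 10 genes called in all of these single-array fits were Pcna, Mcm4, Cdc6, Gmnn, Rrm2, Ccnd1, Cdk4, Ccne1, Mki67 and Cenpa. Fewer dividing cells and less of each transcript per cell cannot be told apart in whole-organ RNA.

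Markers of other cell types also moved across this step. The summed level of 6 fetal Leydig cell markers was 3318 to 7613 at gd12 and 44775 to 48813 at gd14, that of 11 germ cell markers 7010.1 to 21757 and 43061 to 50686, that of 14 Sertoli cell markers 29224 to 48443 and 76230.2 to 81097, and that of 7 erythroid markers 47895 to 80554 and 39898 to 44875. The sum of 6 mesonephric duct markers was 2511 to 4005 at gd12 and 1129 to 1194 at gd14, and that of 6 endothelial markers 3458 to 5184 and 2152 to 2335, so both lists were lower at gd14 without overlap. At gd14 the duct markers Cdh16, Wnt9b and Gata3 had means below background. At gd14 no marker on the Leydig, germ cell, Sertoli, erythroid or endothelial lists had a mean below background. Single markers went against the sum of their list. Sox9, Wt1, Fgf9 and Gata4 on the Sertoli list had lower means at gd14 than at gd12. So did Nanog and Kit on the germ cell list, while Hbb-y, Alas2 and Gata1 on the erythroid list had higher means. The part of these marker shifts in the fall of the division genes was not tested.

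The other single steps moved fewer genes. From gd11 to gd12, 4 genes rose and 5 fell, where 11.2% of all genes rose and 10.2% fell, 21.4% together, so the counts over the 40 genes lay near the background. By group, 1 of 13 replication genes rose and 1 fell, 0 of 7 G1/S genes rose and 4 fell, and 3 of 20 mitosis genes rose and 0 fell. Of the 40 genes, the arrays did not overlap in 3 that were higher and 4 that were lower at gd12, against 10.6% and 10.1% of all genes. The rises numbered 0 without gd12 replicate 15, 2 without gd11 replicate 19, 7 without gd11 replicate 17 and 9 without gd12 replicate 13. From gd14 to gd16, 1 rose and 2 fell, against 5.39% and 4.99%, 10.4% together, and 13 of 40 genes did not overlap, against 39.1%. From gd16 to gd18, 1 rose and 2 fell, against 1.7% and 3.18%, 4.88% together, and 10 genes did not overlap, against 28.7%. Both of these steps were thus near the background too.

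From gd18 to pnd2, 5 rose and 1 fell, against 2.54% and 5.26%, 7.8% together. The arrays did not overlap in 10 genes that were higher and 4 that were lower at pnd2, against 12.6% and 20.9% of all genes. Over the whole period, pnd2 against gd11, 0 rose and 21 fell, where 24.2% of all genes rose and 24.4% fell, 48.6% together. In 19 of the 40 genes every pnd2 array lay below every gd11 array and in 0 every one lay above, against 44.6% of all genes in either direction. This comparison uses arrays of the first and last steps and is not a separate observation. Marker sums also differed between its stages. That of 7 erythroid markers was 81331 to 88466 at gd11 and 569 to 638 at pnd2. That of 6 mesonephric duct markers was 2753 to 8719 and 538 to 642, and that of 8 neural markers 3815 to 64159 and 1069 to 1103. The sum of 6 fetal Leydig cell markers was 964 to 2046 and 21068 to 27490.5. Gata1 on the erythroid list went against its sum. The part of these shifts in the falls was not tested.

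**Figure D2:**
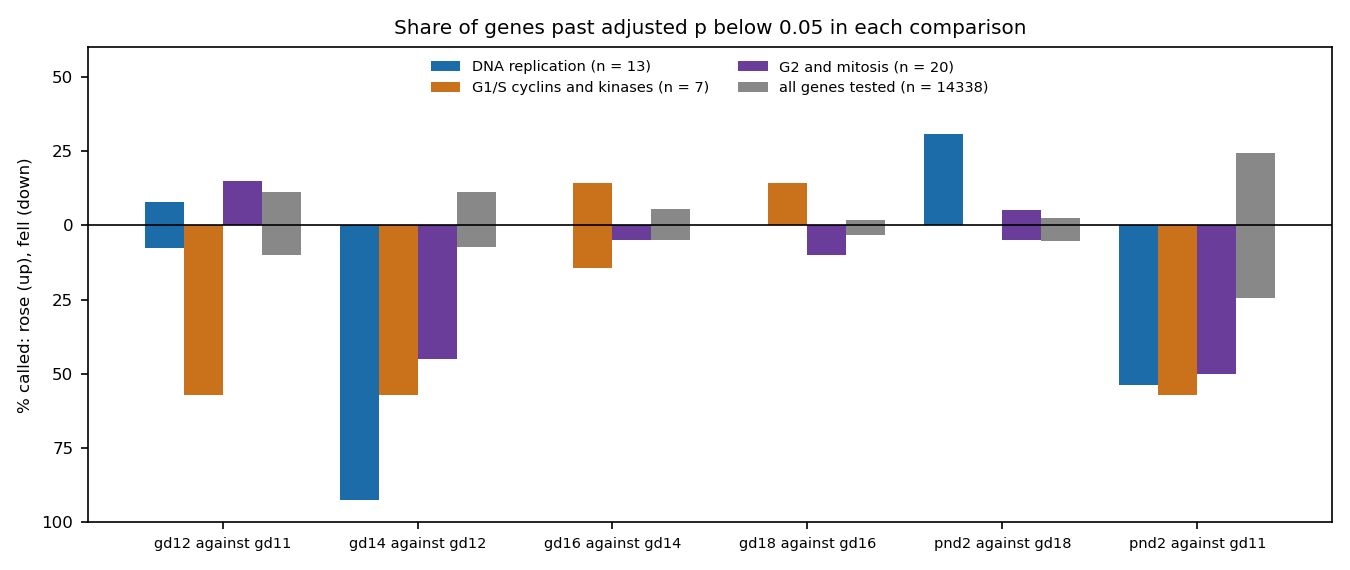
Share of genes past the threshold in each of the 6 comparisons (x axis), as the percentage that rose (upward bars) and fell (downward bars), for the 3 groups of division genes and for all 14338 genes tested. The longest bar is the fall of 12 of 13 replication genes from gd12 to gd14; in that step 4 of 7 G1/S genes and 9 of 20 mitosis genes fell, and 4 of 7 and 10 of 20 fell for pnd2 against gd11. Over all genes 7.34% fell from gd12 to gd14 and 24.4% for pnd2 against gd11.

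Among the 13 replication genes, 12 fell from gd12 to gd14, where 7.34% of all genes fell. The remaining member, Mcm5, differed by -0.30 ± 0.11 with an adjusted p of 0.0692 by limma. Pcna encodes the sliding clamp that holds DNA polymerase on its template. Its intensities were 19531, 19413, 17901, 17845 and 18159 on the gd11 arrays, 15795, 18841 and 17952 at gd12, 13277, 12686 and 12762 at gd14, 13624, 12349.9 and 12259 at gd16, 15060.5, 15726 and 12797 at gd18 and 14258, 15038 and 15058 at pnd2. All gd14 and gd16 arrays lay below all gd11 and gd12 arrays. The log2 difference from gd12 to gd14 was -0.44 ± 0.08 (SE; limma adjusted p = 0.00103).

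The 6 MCM genes encode the subunits of the replicative helicase. From gd12 to gd14 their log2 differences ran from -0.30 in Mcm7 through -0.36 in Mcm6, -0.37 in Mcm3 and -0.40 in Mcm4 to -0.45 in Mcm2. Of the 6, 5 fell, against 7.34% of all genes. From gd16 to gd18 their differences ranged from -0.19 in Mcm5 to 0.19 in Mcm2, and none was called. Mcm7, for example, had a mean of 14708 ± 1439 (SD, n = 3) at gd12 and 11888 ± 225 (n = 3) at gd14. Of the 5 calls, only that of Mcm4 was kept with every single array left out; those of Mcm2 (-0.37, adjusted p = 0.0523) and Mcm6 (-0.29, adjusted p = 0.0785) were lost without gd12 replicate 15, and that of Mcm6 also without gd14 replicate 11. Those of Mcm3 and Mcm7 were lost without any 1 of gd12 replicates 14 and 15 and gd14 replicates 10, 11 and 12, with log2 differences of -0.30 to -0.38 and -0.24 to -0.31 and adjusted p of up to 0.151 and 0.143.

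Cdc6, a loader of the MCM helicase, stepped down between gd12 and gd14. Its intensities were 1189, 1286, 1052, 1109.9 and 1188 at gd11, 1245, 1171 and 1196 at gd12, 719.8, 803 and 672 at gd14, 748, 878 and 612 at gd16, 675, 741 and 570.4 at gd18 and 677, 639.8 and 754 at pnd2. Every array from gd14 on lay below every gd11 and gd12 array. The log2 difference from gd12 to gd14 was -0.70 ± 0.13 (adjusted p = 0.000879), and Cdc6 was 1.69-fold lower in mean intensity at pnd2 than at gd11 (-0.74 ± 0.12, adjusted p = 3.07e-05). Its partner Cdt1 fell from 4769 ± 443 to 3826 ± 191 (SD, n = 3 each; -0.31 ± 0.09, adjusted p = 0.0209), a call lost without gd12 replicate 14 or 15 or gd14 replicate 11, with adjusted p of up to 0.0889. Gmnn, which encodes the Cdt1 inhibitor geminin, fell from 3353 ± 724 to 1999 ± 136 (-0.72 ± 0.15, adjusted p = 0.00266).

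Both subunits of ribonucleotide reductase, the enzyme that makes the DNA precursors, fell from gd12 to gd14. Rrm2, the small subunit that is made mainly in S phase, had intensities of 9374, 9338, 7038, 6854 and 7549 at gd11, 5477, 5801 and 6333 at gd12, 3159, 2875 and 3248 at gd14, 3069, 2980.0 and 2789 at gd16, 2751, 3079 and 2288 at gd18 and 2286, 2571 and 2529 at pnd2. It was the replication gene with the widest range of stage means, and the arrays of gd11, gd12 and gd14 did not overlap. Rrm2 fell from gd11 to gd12 (-0.44 ± 0.11, adjusted p = 0.00824) and from gd12 to gd14 (-0.92 ± 0.12, adjusted p = 5.05e-05), and it was 3.26-fold lower at pnd2 than at gd11 (-1.69 ± 0.11, adjusted p = 4.53e-10). Its 2 other probe sets gave -1.04 and -1.65 for pnd2 against gd11, the same direction. The highest gd11 values of Rrm2 were those of replicates 16 and 17, the arrays with the highest neural marker sums. In the limma fit without them the fall to gd12 was -0.28 (adjusted p = 0.0469).

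Rrm1, the large subunit, had intensities of 6563, 6586, 5588, 5772 and 5739.9 at gd11, 4909.6, 5775 and 5407 at gd12, 4088, 3547 and 4613 at gd14, 3910.0, 3700.5 and 3178 at gd16, 2881, 3922 and 3772 at gd18 and 4753, 4777 and 4888 at pnd2. All 3 pnd2 arrays lay above all arrays of gd14, gd16 and gd18 and below all gd11 arrays. It fell from gd12 to gd14 (-0.40 ± 0.12, adjusted p = 0.0248), a call lost without gd12 replicate 14 or 15 or gd14 replicate 10 or 11 (adjusted p up to 0.128). It rose from gd18 to pnd2 (0.46 ± 0.12, adjusted p = 0.024), while Rrm2 differed by -0.13 ± 0.12 across that step. The rise was lost without gd18 replicate 4, whose Rrm1 value was the lowest of its stage (0.32, adjusted p = 0.114), and without any 1 of the pnd2 arrays (adjusted p 0.063 to 0.0718). Another probe set of Rrm1 rose from gd18 to pnd2 by 0.65 (limma adjusted p = 0.00418 over all probe sets). For pnd2 against gd11 it gave 0.02, where the one used gave -0.33. The remaining probe set, with a mean below the background level, gave 0.27 and 0.00. The difference between the subunits' changes was not tested.

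Tyms, thymidylate synthase, supplies the thymine of DNA and was read by a probe set that lay close to the background level. Its intensities were 178, 262, 209.9, 149 and 229 at gd11, 266, 417 and 293 at gd12, 176, 167 and 171 at gd14, 227, 213 and 266 at gd16, 228, 161 and 109 at gd18 and 211, 236 and 227 at pnd2. The gd12 arrays were all above the gd11 and gd14 arrays, and gd12 replicate 14 was far above the other two. Tyms rose from gd11 to gd12 (0.61 ± 0.20, adjusted p = 0.0382) and fell from gd12 to gd14 (-0.82 ± 0.23, adjusted p = 0.0158). Without gd12 replicate 14 these values were 0.43 and -0.64, with adjusted p of 0.21 and 0.0852, and the rise was also lost without gd12 replicate 15 or gd11 replicate 16 or 19.

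From gd18 to pnd2, 4 of the 13 replication genes rose and 0 fell, where 2.54% of all genes rose. In this step 12 of 13 differences were positive with a median of 0.26 against -0.06 over all genes, and in 7 genes every pnd2 array lay above every gd18 array, a pattern of 12.6% of all genes. The 4 were Mcm2, from 3182 ± 222 to 4174 ± 627 (SD, n = 3 each; 0.38 ± 0.11, adjusted p = 0.0463), Mcm3 (0.40 ± 0.12, adjusted p = 0.0491), Mcm5 (0.38 ± 0.11, adjusted p = 0.0443) and Rrm1. None of these calls, nor that of Mad2l1, was kept with every single array left out. The number of all 40 genes that rose, 5, became 0 without gd18 replicate 4 or pnd2 replicate 3, 1 without gd18 replicate 5 or 6 or pnd2 replicate 2, and 3 without pnd2 replicate 1. Mcm2, Mcm3 and Mcm5 kept log2 differences of 0.26 to 0.46 in the fits that lost them. Across the same step the sum of 6 fetal Leydig cell markers was 35942 to 55516 at gd18 and 21068 to 27490.5 at pnd2, that of 7 erythroid markers 1556 to 3902 and 569 to 638, and that of 6 endothelial markers 2939 to 3244 and 1957 to 2286, each lower at pnd2 without overlap. The sums of 8 neural markers (1575 to 1935 and 1069 to 1103) and 6 skeletal muscle markers (1048 to 1819 and 532 to 707) were also lower without overlap. At both stages the embryonic globins Hbb-y, Hbb-bh1 and Hba-x were below background. Alas2 on the erythroid list had means of 2123 and 187. Of the markers above background on these lists, Gata1 (130.5 and 185.8) and the neural marker Tubb3 (392 and 612) went against their sums. The part of these shifts in the rises was not tested.

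**Figure D3:**
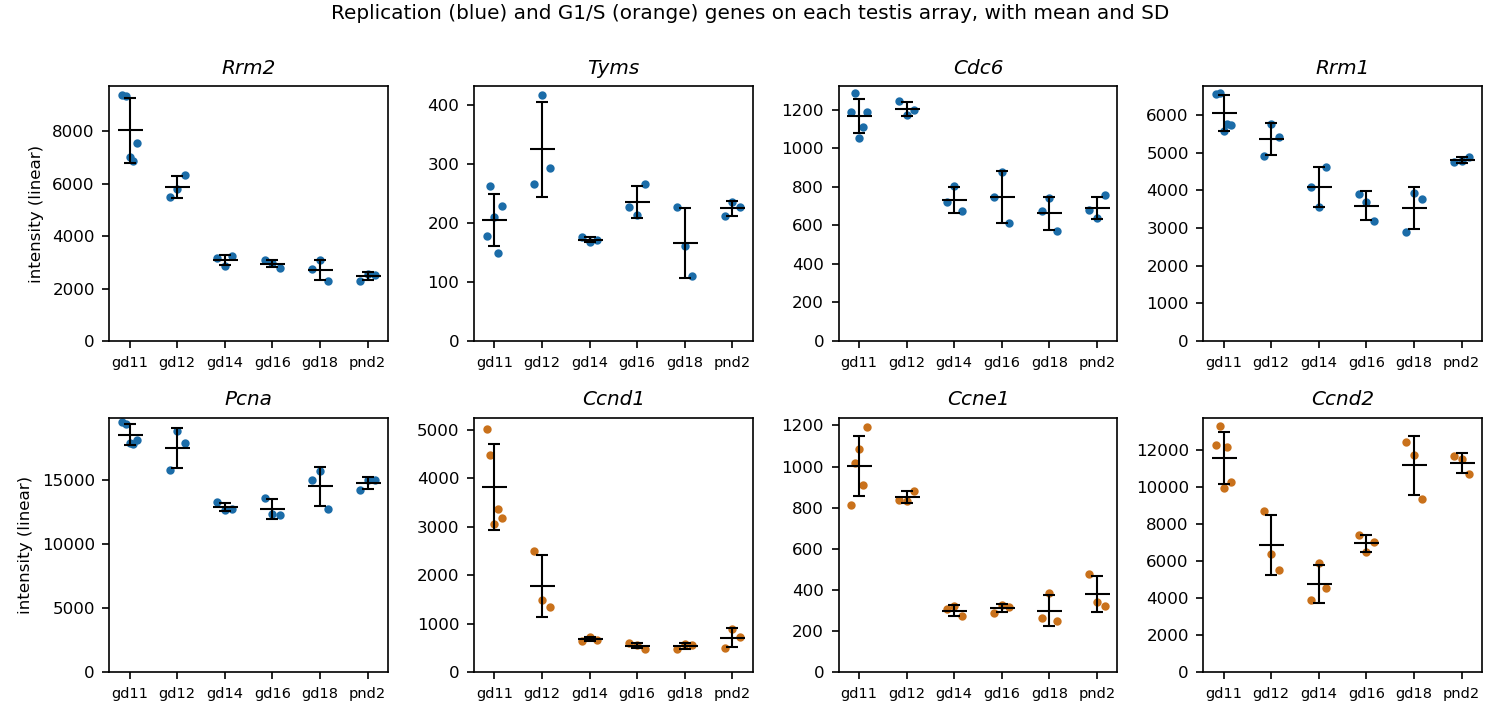
Intensity (linear y axis from 0) of 5 replication genes (blue) and 3 G1/S cyclins (orange) on each of the 20 testis arrays by stage (x axis); points are arrays and black bars the mean and SD. Rrm2, Cdc6, Ccnd1 and Ccne1 step down by gd14 and stay low, whereas Ccnd2 is lowest at gd14 and overlaps its gd11 range again at gd18.

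The promoters of the division genes were set side by side. RefSeq promoters of the build GRCm38.p6, from 250 bases before to 50 after an annotated start, were found for 31 of the 41 genes. They were searched on both strands for E2F sites (TTTCCCGC, TTTGGCGC, TTTCGCGC or TTTGCCGC), for the cell cycle homology region (TTTGAA or TTCGAA) and for the CCAAT box (CCAAT), and E2F matches were allowed to overlap. The 31 genes had 33 promoters, and a gene was counted if any of its promoters held a match. Shares over the table count single promoters instead. An E2F match was found for 6 of 11 replication genes (Cdc6, Cdt1, Mcm3, Mcm5, Mcm6 and Mcm7). It was found for 1 of 16 mitosis genes (Cdk1), 1 of 4 G1/S genes (Cdk2) and 2.26% of the 32851 promoters. A cell cycle homology match was found for 12 of 16 mitosis genes, 2 of 11 replication genes (Mcm2 and Mcm7), 0 of 4 G1/S genes and 19.2% of all promoters. A CCAAT match was found for 14 of 16 mitosis genes, 8 of 11 replication genes and 37.4% of all promoters. A match says only that the letters are present.

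Mcm6 and Mcm5 are shown as helicase genes with paired, overlapping E2F matches, and Ccnb2, Top2a and Bub1 as mitosis genes with cell cycle homology matches. Of these 5, Ccnb2, Top2a and Mcm6 fell from gd12 to gd14, while Mcm5 and Bub1 were not called, at -0.30 and 0.00. Each is printed 5′ to 3′ on the gene's own strand, with the matches to E2F sites and to the cell cycle homology region in capitals. The windows are chr1:128359656-128359955 on the minus strand for Mcm6, chr8:75109259-75109558 on the plus strand for Mcm5, chr9:70421505-70421804 on the minus strand for Ccnb2, chr11:99024140-99024439 on the minus strand for Top2a and chr2:127831810-127832109 on the minus strand for Bub1.
Mcm6: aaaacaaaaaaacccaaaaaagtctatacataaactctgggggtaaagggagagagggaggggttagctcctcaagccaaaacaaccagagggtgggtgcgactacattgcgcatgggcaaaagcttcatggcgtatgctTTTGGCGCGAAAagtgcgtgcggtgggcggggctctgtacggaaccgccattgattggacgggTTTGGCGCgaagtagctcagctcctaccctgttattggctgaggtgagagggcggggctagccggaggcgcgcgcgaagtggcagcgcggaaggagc
Mcm5: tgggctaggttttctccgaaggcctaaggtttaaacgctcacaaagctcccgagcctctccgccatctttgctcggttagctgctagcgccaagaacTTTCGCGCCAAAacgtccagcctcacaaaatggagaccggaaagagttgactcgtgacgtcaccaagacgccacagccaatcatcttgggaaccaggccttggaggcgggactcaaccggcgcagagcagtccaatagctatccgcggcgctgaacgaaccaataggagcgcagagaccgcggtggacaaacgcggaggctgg
Ccnb2: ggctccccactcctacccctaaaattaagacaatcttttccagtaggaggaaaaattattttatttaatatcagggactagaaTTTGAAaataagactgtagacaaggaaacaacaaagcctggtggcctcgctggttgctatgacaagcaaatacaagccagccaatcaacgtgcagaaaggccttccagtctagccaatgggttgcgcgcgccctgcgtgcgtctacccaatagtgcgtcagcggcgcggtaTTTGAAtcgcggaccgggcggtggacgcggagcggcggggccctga
Top2a: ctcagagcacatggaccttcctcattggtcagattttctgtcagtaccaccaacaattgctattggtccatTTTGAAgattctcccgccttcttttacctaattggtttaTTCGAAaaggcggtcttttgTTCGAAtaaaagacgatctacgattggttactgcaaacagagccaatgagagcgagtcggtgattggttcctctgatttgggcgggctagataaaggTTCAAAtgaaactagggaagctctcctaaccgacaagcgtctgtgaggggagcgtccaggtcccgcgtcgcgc
Bub1: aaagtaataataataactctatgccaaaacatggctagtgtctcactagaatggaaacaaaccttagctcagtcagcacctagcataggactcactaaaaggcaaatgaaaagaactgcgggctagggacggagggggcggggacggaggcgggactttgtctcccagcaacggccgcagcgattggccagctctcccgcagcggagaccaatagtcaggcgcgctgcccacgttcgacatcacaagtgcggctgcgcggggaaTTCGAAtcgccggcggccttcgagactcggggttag

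The G1/S genes commit a cell to the cycle. From gd12 to gd14 all 7 differences were negative, with a median of -0.40, and 4 of the 7 fell, against 7.34% of all genes. For pnd2 against gd11, 4 of the 7 fell, against 24.4% of all genes. The D-type cyclins partner Cdk4 and answer growth signals. Ccnd1, cyclin D1, had intensities of 5023, 4482, 3052, 3362 and 3185 at gd11, 2501, 1491 and 1341 at gd12, 650.2, 725 and 668 at gd14, 604, 565 and 492 at gd16, 482, 589 and 573 at gd18 and 508, 893 and 734 at pnd2. No array from gd14 on reached the lowest gd12 array, and no gd12 array reached the lowest gd11 array. Ccnd1 fell from gd11 to gd12 (-1.12 ± 0.20, adjusted p = 0.000597) and from gd12 to gd14 (-1.30 ± 0.22, adjusted p = 0.000514), and was 5.37-fold lower at pnd2 than at gd11 (-2.39 ± 0.20, adjusted p = 1.14e-08). Its stage means, highest at gd11 and lowest at gd18, spanned 2.73 on the log2 scale, the widest range of the 40 genes. The highest gd11 values were those of replicates 16 and 17, the arrays with the highest neural marker sums; their part in the Ccnd1 level was not tested beyond the fit without them, in which the fall to gd12 was still called (-0.89, adjusted p = 0.00269).

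Ccnd2, cyclin D2, followed a V. Its intensities were 12245, 13264, 9945, 12125 and 10283 at gd11, 8698, 6368 and 5539 at gd12, 3887, 5899 and 4529 at gd14, 7383, 6466 and 7038 at gd16, 12421, 11712 and 9368 at gd18 and 11644, 11521 and 10688 at pnd2. The gd11 and gd12 arrays did not overlap, nor did those of gd14 and gd16 or of gd16 and gd18, while the gd12 and gd14 ranges overlapped and the pnd2 arrays lay within the gd18 range. It fell from gd11 to gd12 (-0.77 ± 0.14, adjusted p = 0.000834) and from gd12 to gd14 (-0.52 ± 0.16, adjusted p = 0.0289), then rose from gd14 to gd16 (0.56 ± 0.16, adjusted p = 0.0308) and from gd16 to gd18 (0.67 ± 0.16, adjusted p = 0.0204). Its pnd2 and gd11 levels differed by -0.03 ± 0.14. It was the only 1 of the 40 genes to rise in either of those 2 later steps.

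All 6 other probe sets of Ccnd2 gave a fall at both early steps and a rise at both later ones, from 0.41 to 0.78 for gd16 against gd14 and from 0.51 to 0.88 for gd18 against gd16. Only the call from gd11 to gd12 was kept with every single array left out. That from gd12 to gd14 was lost without gd12 replicate 13 (-0.34, adjusted p = 0.166), gd14 replicate 10 (-0.38) or gd14 replicate 12 (-0.49). The rise to gd16 was lost without gd14 replicate 10 (0.43, adjusted p = 0.166) or 12 or gd16 replicate 7 or 9, and the rise to gd18 without gd16 replicate 8 or 9 or gd18 replicate 4 (0.59, adjusted p = 0.115) or 5.

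Ccnd3, cyclin D3, was the only cyclin highest at gd18, with intensities of 5892, 5447 and 5720.0 there against 4383, 4731 and 4189 at gd16 and 4328, 3816 and 4345 at pnd2. The gd18 arrays lay above all others of the 6 stages. No step passed the threshold: the differences were 0.36 ± 0.14 from gd16 to gd18 (adjusted p = 0.166) and -0.45 ± 0.14 from gd18 to pnd2 (adjusted p = 0.0564). Cdk4, the kinase partner of the D cyclins, fell in 3 successive steps, from 12477 ± 679.6 (SD, n = 5) at gd11 to 9440.5 ± 377, 7662 ± 398 and 6333 ± 202 (n = 3 each) at gd12, gd14 and gd16. Its difference from gd11 to pnd2 was -1.01 ± 0.07 (adjusted p = 4.1e-10). The step from gd14 to gd16 (-0.27 ± 0.07, adjusted p = 0.0243) was lost without gd14 replicate 11 or 12 or gd16 replicate 7 or 9, with adjusted p of up to 0.11.

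Of the E cyclins, which activate Cdk2 at the start of S phase, Ccne1 fell in 1 step. Its intensities were 814, 1019, 1085, 910.2 and 1190.3 at gd11, 835, 831 and 884 at gd12, 306, 323 and 274 at gd14, 289, 329.5 and 317 at gd16, 264, 387 and 248 at gd18 and 479, 343 and 321 at pnd2. All gd12 arrays lay within the gd11 range, and every later array lay far below both. The difference from gd12 to gd14 was -1.44 ± 0.17 (adjusted p = 1.56e-05), a 2.83-fold lower mean and the largest change of any of the 40 genes in that step. Its other probe set gave -1.03.

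Ccne2 declined from 1016 ± 139 (SD, n = 5) at gd11 to 768 ± 66.6 at gd12, 575 ± 50.1 at gd14 and 416 ± 53.7 at pnd2 (n = 3 each; -1.24 ± 0.13 for pnd2 against gd11, adjusted p = 1.92e-07). Its fall from gd11 to gd12 (-0.39 ± 0.13, adjusted p = 0.0373) was lost without gd11 replicate 17, 19 or 20 or gd12 replicate 14 or 15, with adjusted p of up to 0.15. Cdk2 itself had no called difference; it was 0.67 ± 0.35 from gd11 to pnd2 (adjusted p = 0.131), with the largest standard errors of the 40 genes.

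In G2 and mitosis, 9 of 20 genes fell from gd12 to gd14 and 0 rose, with a median of -0.40. Over all genes 7.34% fell and 11.4% rose. Mki67, which encodes the proliferation antigen Ki-67 of the mitotic chromosome surface, had intensities of 5882, 6840.3, 5885, 6233 and 5565 at gd11, 7075, 6774 and 8289 at gd12, 4121, 4675 and 4792 at gd14, 5311, 6029 and 5337 at gd16, 5592, 5530.5 and 4177 at gd18 and 4292, 4620.2 and 4426 at pnd2. All gd14 arrays lay below all gd11 and gd12 arrays, and the gd16 arrays lay above those of gd14. Mki67 fell from gd12 to gd14 (-0.70 ± 0.11, adjusted p = 0.000223), the largest fall of the mitosis genes. It was lower at pnd2 than at gd11 (-0.45 ± 0.10, adjusted p = 0.000954).

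Top2a, the topoisomerase that untangles sister chromatids, had intensities of 8453, 9422, 7358, 7006 and 7053 at gd11, 7163, 8921 and 10120.5 at gd12, 6058, 5735 and 6825 at gd14, 5758, 5298 and 5074 at gd16, 5375, 5634 and 4839 at gd18 and 5374, 5792 and 6342 at pnd2. Every array from gd14 on lay below every earlier array. It fell from gd12 to gd14 (-0.48 ± 0.13, adjusted p = 0.0114), a call lost without gd12 replicate 15 (-0.37, adjusted p = 0.0675) or gd14 replicate 11 (-0.43, adjusted p = 0.0538), and it fell from gd11 to pnd2 (-0.42 ± 0.11, adjusted p = 0.0043).

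Ccnb2, a cyclin that drives entry into mitosis with Cdk1, had intensities of 3339, 3888, 2892, 3766 and 2552 at gd11, 3975, 4706 and 5116 at gd12, 3472, 3301 and 3109 at gd14, 2727, 2879 and 2251 at gd16, 3081, 2829.8 and 2590.0 at gd18 and 2772, 3249 and 3718 at pnd2. The gd12 arrays were above those of every other stage. It rose from gd11 to gd12 (0.49 ± 0.13, adjusted p = 0.0124) and fell from gd12 to gd14 (-0.47 ± 0.15, adjusted p = 0.0314). The rise was lost without gd12 replicate 15 (0.41, adjusted p = 0.087). The fall was lost without gd12 replicate 14 or 15 or any 1 of the gd14 arrays, at adjusted p of 0.0564 to 0.12.

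The other genes that fell in this step, with their log2 differences, were Ccna2, cyclin A2 (-0.66), the spindle motor Kif11 (-0.49), the spindle assembly factor Tpx2 (-0.47), the centromeric histone Cenpa (-0.45), the ubiquitin-conjugating enzyme Ube2c (-0.44) and Birc5, survivin of the chromosomal passenger complex (-0.39). Of these 6, only Cenpa was called with every single array left out. Ccna2, Tpx2 and Ube2c were lost without gd12 replicate 15 or gd14 replicate 10, Kif11 without gd12 replicate 14 or 15 or gd14 replicate 11, Ube2c also without gd12 replicate 14, and Birc5 without gd14 replicate 10 (-0.32, adjusted p = 0.0524), with adjusted p of at most 0.0868 in these fits. Kif20a, a motor of cytokinesis, had intensities of 1702, 2143, 1904, 1806 and 1863 at gd11, 1981, 2517 and 2883 at gd12, 1985, 1544 and 1964 at gd14, 1513, 1582 and 1359 at gd16, 1398, 1558 and 1233 at gd18 and 1425, 1742 and 2162 at pnd2. Its gd12 and gd14 ranges overlapped narrowly, and the difference, -0.41 ± 0.15, did not pass the threshold (adjusted p = 0.0657).

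Of the 20 mitosis genes, 11 were not called from gd12 to gd14. Among them were Bub1, Mad2l1, Bub1b and Cdc20, which act in or with the spindle assembly checkpoint that holds chromosome separation until every kinetochore is attached. They were put together after their values were seen, and no difference from the other mitosis genes was tested. Bub1, a checkpoint kinase, had intensities of 2824, 3489.6, 2349.8, 2406 and 2491 at gd11, 2638, 4187 and 4209.8 at gd12, 3750.4, 3529 and 3541 at gd14, 2517, 2912 and 2380.1 at gd16, 1628, 1645 and 1638 at gd18 and 1924, 1836 and 2004 at pnd2. The arrays of gd14, gd16 and gd18 did not overlap, and each stage lay below the one before. The log2 difference was 0.00 ± 0.15 from gd12 to gd14, -0.47 ± 0.15 from gd14 to gd16 (adjusted p = 0.0566) and -0.66 ± 0.15 from gd16 to gd18 (adjusted p = 0.0188). That last call was lost without gd16 replicate 8 (-0.57, adjusted p = 0.114) or gd18 replicate 4 or 5. Its rise from gd11 to gd12 (0.42 ± 0.14, adjusted p = 0.0356) was lost without gd11 replicate 18, 19 or 20 or gd12 replicate 14 or 15 (adjusted p up to 0.211).

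Mad2l1, which encodes the checkpoint protein Mad2, was the only gene with all gd14 arrays above all gd12 arrays. Its intensities were 3939, 4285, 2865, 3346 and 3124 at gd11, 3313, 4697 and 4772 at gd12, 5518, 5161 and 5239 at gd14, 3229.9, 4154 and 3212 at gd16, 2567, 2595 and 2935 at gd18 and 3549.9, 4033 and 4307 at pnd2. The gd14 arrays were the highest of the 20, the gd18 arrays lay below all those of gd14 and gd16, and the pnd2 arrays lay above those of gd18. It differed by 0.33 ± 0.15 from gd12 to gd14 (adjusted p = 0.135), fell from gd14 to gd16 (-0.59 ± 0.15, adjusted p = 0.0183) and rose from gd18 to pnd2 (0.55 ± 0.15, adjusted p = 0.0319). The fall was lost without gd14 replicate 10 or gd16 replicate 7 or 9 (adjusted p up to 0.0947), and the rise without any 1 of gd18 replicates 4, 5 and 6 and pnd2 replicates 2 and 3 (adjusted p up to 0.117).

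The checkpoint kinase Bub1b differed by -0.09 ± 0.15 from gd12 to gd14, and Cdc20, the activator of the anaphase-promoting complex that the checkpoint holds back, by -0.07 ± 0.10. Cdc20 fell later, from 8062 ± 568 at gd16 to 5809 ± 211 at gd18 (SD, n = 3 each; -0.47 ± 0.10, adjusted p = 0.00798), a call lost without gd16 replicate 8 (-0.42, adjusted p = 0.0632). The identifier of the Cdc20 probe set used ends in x_at, a type that can also bind related transcripts. The other Cdc20 probe sets gave -0.18 and -0.78 for that step, neither called by limma over all probe sets (adjusted p = 0.594 and 0.488). The summed level of the 11 germ cell markers was highest at gd14: 1227 to 2281 at gd11, 7010.1 to 21757 at gd12, 43061 to 50686 at gd14, 26022 to 31063 at gd16, 13008 to 24447 at gd18 and 9350.5 to 13661 at pnd2. Of those markers, 6 were below background at gd11 (Ddx4, Nanog, Mael, Piwil4, Dnmt3l and Tex101), 0 at gd14 and 3 at pnd2 (Dppa3, Nanog and Dnmt3l). By single markers, the highest means of Nanog and Kit lay at gd12 and those of Piwil2, Piwil4, Dnmt3l and Tex101 at gd16. Bub1b and Cdc20 had their highest stage means at gd12. The part of the germ cell markers in the checkpoint genes' course was not tested.

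Cenpe, a kinetochore motor that carries chromosomes to the spindle equator, declined from gd12 to the end of the series by the probe set used. Its intensities were 1561, 1686, 1565, 1752 and 1466 at gd11, 1945, 2013 and 2374 at gd12, 1801, 1999.9 and 1859 at gd14, 1601, 1817 and 1406 at gd16, 1495, 1169 and 1109 at gd18 and 842, 880.4 and 979 at pnd2. All pnd2 arrays lay below all other arrays. It rose from gd11 to gd12 (0.39 ± 0.11, adjusted p = 0.0153), a call lost without gd12 replicate 15 (0.30, adjusted p = 0.117), and fell from gd18 to pnd2 (-0.46 ± 0.12, adjusted p = 0.0249), a call lost without gd18 replicate 4 (-0.33, adjusted p = 0.116) or pnd2 replicate 1 or 2. From gd11 to pnd2 its mean intensity was 1.78-fold lower (-0.82 ± 0.11, adjusted p = 4.39e-06). Its second, dimmer probe set went the opposite way over that span (0.67, adjusted p = 0.00166 over all probe sets), so the direction for Cenpe depends on the probe set. That dimmer probe set also rose from gd11 to gd12 (0.94) and gave 0.06 from gd18 to pnd2, where the one used fell.

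Aurka, the centrosome kinase Aurora A, had intensities of 2491, 2739, 2156, 2198 and 2183 at gd11, 1822, 2528 and 2747 at gd12, 1871, 1963 and 1953 at gd14, 1915, 1798 and 1648 at gd16, 1847, 1626 and 1531 at gd18 and 1256, 1280.0 and 1607 at pnd2. The pnd2 arrays lay below all gd11 arrays. No single step passed the threshold, whereas the span from gd11 to pnd2 did (-0.76 ± 0.12, adjusted p = 4.24e-05). Birc5 (-0.61 ± 0.09, adjusted p = 9.47e-06) also fell over that span. In all, 10 of 20 mitosis genes fell over it and 0 rose, where 24.4% of all genes fell. The 10 include Cenpe, whose other probe set rose. They also include Cdc25c (-0.52), the phosphatase that activates Cdk1, whose call was lost without pnd2 replicate 1 (-0.37, adjusted p = 0.101), and Kif11 (-0.29), whose call was lost without gd11 replicate 16, 17, 18 or 20 or pnd2 replicate 1 or 2 (adjusted p up to 0.204) and with no filter on low values (adjusted p = 0.0554).

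**Figure D4:**
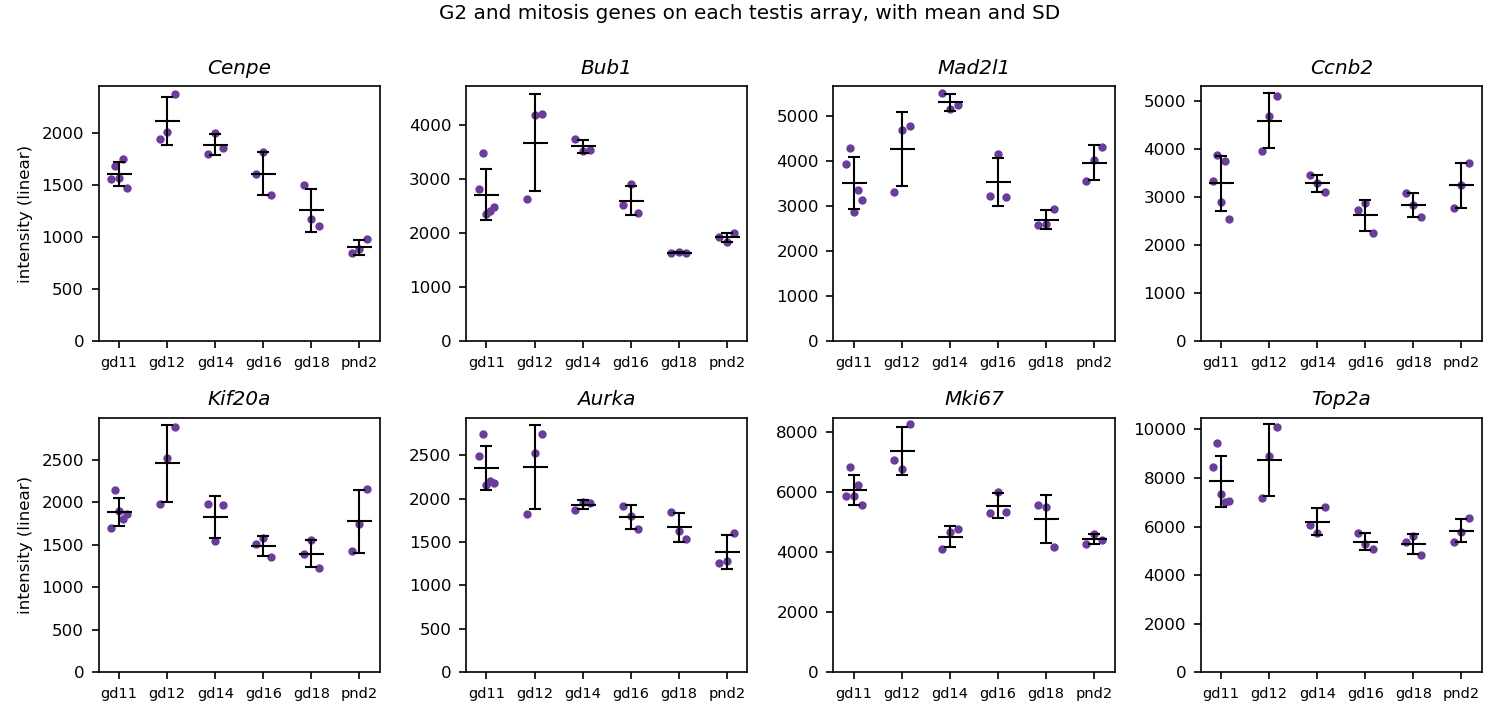
Intensity (linear y axis from 0) of 8 G2 and mitosis genes on each of the 20 testis arrays by stage (x axis); points are arrays and black bars the mean and SD. The gd14 points of Mki67 and Top2a lie below all gd12 points, those of Bub1 lie within the gd12 range and those of Mad2l1 above it. Cenpe, by the probe set shown, and Aurka are lowest at pnd2.

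**Figure D5:**
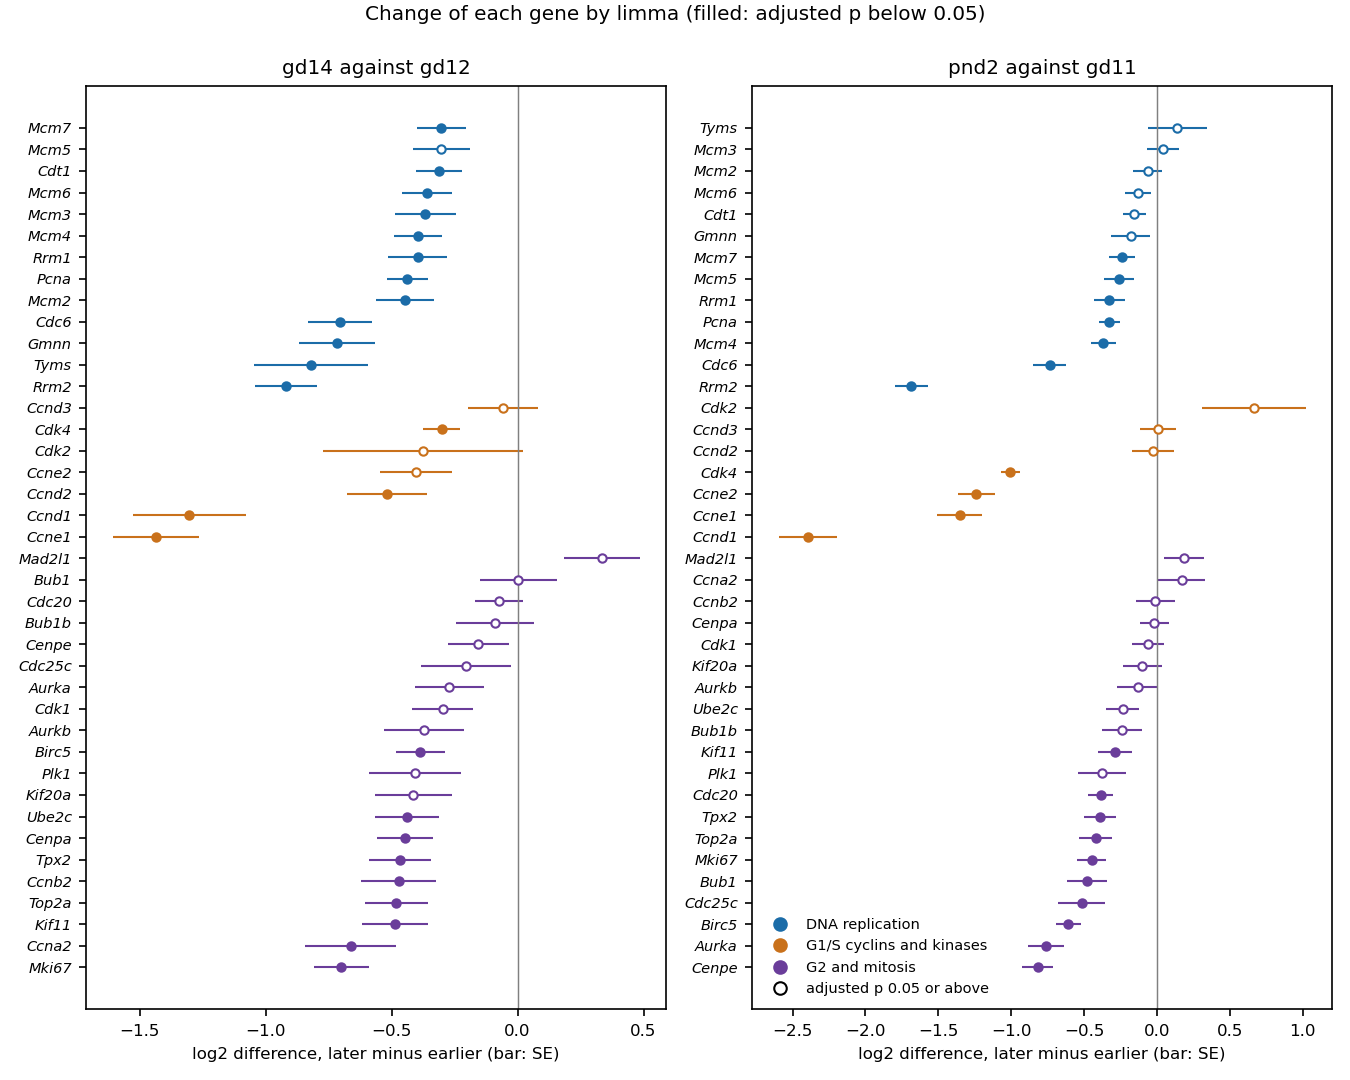
Log2 difference of each of the 40 genes (x axis, later minus earlier stage, bar = SE) for gd14 against gd12 and for pnd2 against gd11; colours give the group and filled points passed an adjusted p below 0.05. In the first comparison all but Mad2l1 and Bub1 lie below 0, and in the second Ccnd1, Rrm2, Ccne1, Ccne2 and Cdk4 fell the most, each by at least 1.01 on the log2 scale.

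At gd11, gd12, gd16, gd18 and pnd2 a single array was the highest or the lowest for at least 16 of the 20 mitosis genes. Replicate 15 was the highest of the gd12 arrays for 17 of 20 mitosis genes, against 30.1% of all genes. Of the same arrays, replicate 13 was the lowest for 12 of 13 replication genes and 14 of 20 mitosis genes, against 33.5% of all genes. Replicate 6 was the lowest of the gd18 arrays for 17 of 20, against 33.2%, and replicate 3 was the highest of the pnd2 arrays for 17 of 20, against 39.3%. At gd11, replicate 17 was the highest of 5 for 16 of 20 mitosis genes and 8 of 13 replication genes, against 16.4% of all genes. At gd16, replicate 9 was the lowest for 16 of 20 mitosis genes, against 33% of all genes. At gd14, replicates 10, 11 and 12 were the highest for 7, 8 and 5 of 20 mitosis genes, against 34.7%, 32% and 33.3% of all genes, and replicate 10 was the lowest for 12 of 20, against 36.4%. The germ cell marker sum of gd18 replicate 6 was 24447 against 13008 and 14821 on the other two arrays of that stage. The part of these array differences in the calls is shown only by the fits without single arrays.

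Other genes of the same pathways, taken from lists put together by function, were followed through the same fit. Of 41 further replication genes tested, 7 rose and 1 fell from gd11 to gd12, 0 rose and 14 fell from gd12 to gd14, and 6 rose and 0 fell from gd18 to pnd2. Over all genes the shares were 11.2% risen and 10.2% fallen, 11.4% and 7.34%, and 2.54% and 5.26% in these 3 steps. The largest falls from gd12 to gd14 were those of Chaf1b, a subunit of chromatin assembly factor 1 (-0.76 ± 0.12, adjusted p = 0.000223), Orc1 of the origin recognition complex (-0.71 ± 0.20, adjusted p = 0.0154) and the helicase cofactor Cdc45 (-0.66 ± 0.15, adjusted p = 0.0054). Orc1 (0.76 ± 0.20, adjusted p = 0.0228) and Chaf1b (0.60 ± 0.12, adjusted p = 0.00552) were also among the 3 largest rises from gd18 to pnd2, with Tipin, of the replication fork protection complex (0.76 ± 0.13, adjusted p = 0.00155). From gd14 to gd16 1 rose, the thymidine kinase Tk1 (0.50), and 5 fell, led by the initiation factor Mcm10 (-0.81). Over all genes 5.39% rose and 4.99% fell in that step. From gd16 to gd18 0 rose and 3 fell, against 1.7% and 3.18% of all genes. The 3 were Rfc4 (-0.61) and Rfc3 (-0.50), subunits of the loader of the Pcna clamp, and Dbf4 (-0.52), the activator of the Cdc7 kinase. For pnd2 against gd11, 6 of the 41 rose and 17 fell, against 24.2% and 24.4% of all genes.

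Of 55 further mitosis genes tested, 19 rose and 0 fell from gd11 to gd12, where 11.2% of all genes rose and 10.2% fell. The largest rises were those of the condensin subunit Smc4 (0.99 ± 0.26, adjusted p = 0.0105), the centrosome kinase Nek2 (0.69 ± 0.17, adjusted p = 0.00736) and shugoshin Sgo2a, a protector of centromeric cohesion (0.67 ± 0.14, adjusted p = 0.0022). From gd12 to gd14, 14 of the 55 fell and 1 rose, against 7.34% and 11.4% of all genes. The rise was that of Cep55, which acts in the last cut between daughter cells (0.50 ± 0.13, adjusted p = 0.0117). The largest falls were those of the condensin subunit Smc2 (-0.64), the kinase Melk (-0.64) and the centromere protein Cenpi (-0.61). Cep55 then fell from gd14 to gd16 (-0.56), 1 of 5 falls in that step, with Cdca5, which stabilises cohesin (-0.68), and Espl1, the separase that cuts it (-0.61). Over all genes 4.99% fell from gd14 to gd16. Over the later steps 0 rose and 1 fell from gd16 to gd18, against 1.7% and 3.18% of all genes. From gd18 to pnd2 1 rose and 1 fell, against 2.54% and 5.26%: Cenph (0.88), a centromere protein, rose and Hmmr (-0.52), a spindle protein, fell. Over the span from gd11 to pnd2, 5 of the 55 rose and 17 fell, against 24.2% and 24.4% of all genes.

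Of 18 E2F and related regulators, 3 rose and 3 fell from gd11 to gd12, where 11.2% of all genes rose and 10.2% fell, and 0 rose and 5 fell from gd12 to gd14. The largest falls from gd11 to pnd2 were those of E2f5, an E2F of the repressing class (-1.65 ± 0.11, adjusted p = 6.46e-10), and E2f3 (-1.28 ± 0.10, adjusted p = 4.65e-09). E2f8 fell from gd12 to gd14 (-0.76). Mybl2, a transcription factor of the mitotic program, rose from gd11 to gd12 with overlapping arrays (0.89 ± 0.19, adjusted p = 0.00247) and fell from gd14 to gd16 (-0.70 ± 0.21, adjusted p = 0.0396). Cdk6, the second kinase partner of the D cyclins, rose from gd16 to gd18 (0.81 ± 0.17, adjusted p = 0.0099), the step in which Ccnd2 rose. These lists were compared with the background only through the counts: from gd12 to gd14, 14 of 41, 14 of 55 and 5 of 18 fell, against 7.34% of all genes.

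Other probe sets of the called genes mostly ran the same way as the probe set used. For the 25 genes that fell from gd12 to gd14, 32 of 35 other probe sets gave a fall and none of the 3 others was called in the opposite direction. From gd11 to gd12 it was 15 of 15, from gd14 to gd16 8 of 8, from gd16 to gd18 9 of 9 and from gd18 to pnd2 8 of 10. For pnd2 against gd11 it was 21 of 26, and 1 of the 5 opposite probe sets, that of Cenpe, was called. Probe sets whose identifier ends in x_at, such as the one that represents Rrm2 and the one for Ccne1, can also bind related transcripts, so their levels are less certain; the other probe sets of both genes fell too.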

How the data were processed

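Single-colour oligonucleotide arrays measured total RNA of whole testes (20 arrays) and of a newborn reference (1 array). The deposited values are intensities on a linear scale, 1 per probe set, made by the authors with GCOS, as the submitters' processing notes name it (algorithm and version: not given in the sources used here). The trimmed mean (2% at each end) was 500 on every array, and array totals carry no depth: the number of arrays limits the precision. From the deposited intensities, log2(intensity + 22.4) was computed, 22.4 being the 20th percentile, so differences of dim genes are understated. Probe sets above their array's 40th percentile (71.6 over all arrays) on at least 3 arrays were kept, and each of 14338 genes was read by its brightest. Of 45101 probe sets, 34945 had 1 gene symbol, 932 several and 9160 none, and 64 were controls; those with several symbols were left out.

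Stages were compared by limma 3.58.1 (R 4.3.3) in 1 fit over the 20 arrays, with Benjamini-Hochberg adjustment over all genes; calls are adjusted p below 0.05. It was tested on simulated data. Group labels came from the sample labels, which name no batch. The p-values measure the spread between separate animals or pools. Values on every array were given for the 4 replication, 3 G1/S and 6 mitosis genes with the widest range of stage means and for Mki67, Pcna, Top2a and Ccnd2; Ccnd3 was added after its values were seen. From the other lists, the up to 3 largest called rises and 3 largest called falls of a comparison could be named. The members and lists were chosen with earlier results of these data known. Alternatives were another pseudocount, no filter, quantile normalization, means over probe sets, fits of only the stages compared, and fits without arrays. The reference array has no replicate and no test.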

Additional observations from a re-analysis of the deposited data

Results flagged for a closer look

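In the 5 gd11 arrays, Mcm2 of replicate 19 stood apart from the rest of its stage, at 3798 against 4376, 4420.0, 4556 and 4577 on the other arrays; the gap to its nearest neighbour was 0.742 of the whole range of the stage. Only gd11 has enough arrays for such a comparison, and 40 genes were compared in it, where chance flags about 1 in 20.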

How the results depend on the processing

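No call of the 40 genes changed direction under any alternative, and another pseudocount moved none of the 13 counts of calls by more than 1.5 times. From gd11 to gd12, 4 rose and 5 fell; the rises became 7 with quantile normalization, 7 without gd11 replicates 16 and 17, and 1 in a fit of only these stages, and the falls became 3 without gd12 replicates 13 and 14 and 3 in a fit of only these stages. With single arrays left out they ranged from 0 to 9 and from 4 to 5. From gd12 to gd14 the 25 falls became 16 without gd12 replicates 13 and 14, and 13 to 28 with single arrays left out. From gd14 to gd16 the rises (1) became 2 with quantile normalization and 2 in a fit of only these stages, where the falls (2) became 7; single arrays gave 0 to 1 and 0 to 2. From gd16 to gd18 the rises (1) became 2 in a fit of only these stages, and single arrays gave 0 to 2 rises and 0 to 2 falls. From gd18 to pnd2 the rises (5) became 2 without the filter, 2 with quantile normalization and 3 in a fit of only these stages, the falls (1) became 2 with quantile normalization, 0 with means over probe sets and 2 in a fit of only these stages, and single arrays gave 0 to 3 and 0 to 1. For pnd2 against gd11 the rises (0) became 1 with means over probe sets, which was Ccnd3, and 2 without gd11 replicates 16 and 17, which were Ccna2 and Mad2l1; the falls (21) were 17 to 22 with single arrays left out. Fits with fewer arrays have fewer degrees of freedom; otherwise the cause was not tested. No paired analysis was possible because the replicate numbers run on over the series and no stages share one. With 3 arrays a stage, the standard errors of the log2 differences were 0.07 to 0.40, so small changes of single genes could not be called.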

Other observations

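The newborn reference, RNA of whole newborn mice on 1 array, sets the division genes of the pnd2 testis beside those of the whole body at about birth. The mean log2 level at pnd2 was above the reference for 37 of the 40 genes, with a median difference of 1.25, where 54.8% of all genes lay above it with a median of 0.11. All 20 mitosis genes were higher in the testis, with a median of 1.59, and 12 of 13 replication genes, with a median of 0.88. Kif20a was 1425, 1742 and 2162 on the pnd2 arrays and 309 in the reference, Cenpe 842, 880.4 and 979 and 202, and Bub1 1924, 1836 and 2004 and 442. Among the G1/S genes the D cyclins lay on opposite sides: Ccnd2 was 11644, 11521 and 10688 at pnd2 and 2629 in the reference, whereas Ccnd1 was 508, 893 and 734 and 2840.3. The other genes below the reference were Rrm2, 2286, 2571 and 2529 against 3593, and Ccne1, 479, 343 and 321 against 568. There is no replicate of the reference, so none of these differences has a test.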
